A study of Homo sapiens with 18 samples.

Results

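K562 is a human chronic myeloid leukaemia cell line with erythroid and megakaryocyte features. KRAB-D9 is a derivative in which doxycycline turns on dCas9-KRAB, a catalytically dead Cas9 fused to a transcriptional repressor domain. Cells of this line that had received doxycycline and interferon alpha (IFN) were compared with untreated cells of the line across all genes, because SAMD9 RNA was at about the same low level in both. The comparison rests on 4 of the 18 libraries of the series, 2 per group, taken from the columns named for those groups. Untreated cells received neither agent. Cells with both treatments received doxycycline at 2 µg/mL for 24 hours before IFN, then IFN at 1000 U/mL for 24 hours with doxycycline kept on. KRAB-D9 given IFN alone and KRAB-D9 given doxycycline alone, 2 libraries each, were used to place the combined change beside the single ones. The sources used here do not give how long doxycycline was given without IFN, how the line was made or whether it is 1 clone. All 4 groups carry the KRAB-D9 construct, and no parental group with doxycycline was analysed here, so effects of doxycycline itself, of dCas9-KRAB protein and of silencing its target cannot be told apart.

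Type I interferons bind a receptor of IFNAR1 and IFNAR2, whose kinases JAK1 and TYK2 phosphorylate STAT proteins such as STAT2. These enter the nucleus with IRF9, in a complex that binds interferon response elements and switches on antiviral genes. SAMD9 is itself such a gene, and encodes a cytoplasmic protein that restrains growth and translation. Ribosome assembly needs RNA polymerase I, snoRNA-guided processing of the precursor RNA and separate maturation paths for the small and large subunits, and is a costly programme of growing leukaemia cells.

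The promoters below are shown because the comparison joins an interferon arm, a nucleolar arm and a stress arm. They are the bases before the annotated start in RefSeq (GRCh38.p14), read 5′ to 3′ on the gene's strand, with motif matches in capitals: GAAANNGAA, the core of the interferon response element, in SAMD9 (chr7:93117980-93118229, minus strand), ISG15 (chr1:1013247-1013496, plus) and IFI27 (chr14:94110486-94110735, plus); CACGTG, the E-box bound by MYC and related factors, in UTP20 (chr12:101279855-101280104, plus) and IMP4 (chr2:130342647-130342896, plus); and TTGCATCA, an ATF4 composite element, in HERPUD1 (chr16:56931892-56932141, plus). In ISG15 overlapping matches merge into 1 run of capitals. Only the motif named for each gene is marked, and the HERPUD1 stretch also holds CACGTG, left in lower case.
SAMD9: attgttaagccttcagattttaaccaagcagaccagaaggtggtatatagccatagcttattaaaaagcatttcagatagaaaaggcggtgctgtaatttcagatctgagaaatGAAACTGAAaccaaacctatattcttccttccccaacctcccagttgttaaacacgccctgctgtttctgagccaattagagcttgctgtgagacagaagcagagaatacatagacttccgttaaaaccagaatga
ISG15: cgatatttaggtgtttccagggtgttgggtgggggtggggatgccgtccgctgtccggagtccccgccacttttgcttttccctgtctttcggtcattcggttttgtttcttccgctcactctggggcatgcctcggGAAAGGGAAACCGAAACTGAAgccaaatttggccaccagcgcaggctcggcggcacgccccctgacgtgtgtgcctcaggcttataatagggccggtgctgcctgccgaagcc
IFI27: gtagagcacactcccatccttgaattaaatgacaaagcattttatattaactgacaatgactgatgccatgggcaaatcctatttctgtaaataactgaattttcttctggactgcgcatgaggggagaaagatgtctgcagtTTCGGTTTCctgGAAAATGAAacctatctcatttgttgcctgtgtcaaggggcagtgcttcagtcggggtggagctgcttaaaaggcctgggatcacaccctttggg
UTP20: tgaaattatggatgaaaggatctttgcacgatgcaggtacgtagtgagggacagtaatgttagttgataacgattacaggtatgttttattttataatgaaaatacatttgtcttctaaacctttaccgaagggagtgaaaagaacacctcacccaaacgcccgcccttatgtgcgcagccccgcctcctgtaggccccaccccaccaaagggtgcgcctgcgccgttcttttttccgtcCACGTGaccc
IMP4: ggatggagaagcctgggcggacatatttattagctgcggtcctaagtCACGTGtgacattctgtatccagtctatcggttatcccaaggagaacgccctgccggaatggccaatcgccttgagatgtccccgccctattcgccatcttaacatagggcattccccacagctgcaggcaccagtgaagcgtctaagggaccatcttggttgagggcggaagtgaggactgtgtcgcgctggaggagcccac
HERPUD1: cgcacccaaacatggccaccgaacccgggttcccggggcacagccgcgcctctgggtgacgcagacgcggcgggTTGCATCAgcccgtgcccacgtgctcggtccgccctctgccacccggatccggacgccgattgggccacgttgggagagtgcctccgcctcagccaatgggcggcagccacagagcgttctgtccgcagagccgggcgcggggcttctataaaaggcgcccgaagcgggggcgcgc

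SAMD9 (ENSG00000205413.8, chromosome 7, 93099513 to 93118023, GRCh38.p13) did not differ by the test. Its level, as counts scaled to a common library size (CPM, with TMM factors), was 0.750 and 0.364 in the untreated libraries and 0.849 and 0.745 with both treatments, from 40, 16, 47 and 40 counts. The ranges overlapped, since the second treated library lay just below the first untreated one. The log2 fold change was 0.47 ± 0.27 (standard error; adjusted p = 0.222 by edgeR's quasi-likelihood test with Benjamini-Hochberg adjustment over all genes), and 1.12 (edgeR adjusted p = 0.0134) without untreated replicate 1. Equality of this RNA therefore holds only within the spread of few counts. Beside these stood 55.0 and 53.5 CPM with IFN alone, and 0 and 0.117 CPM with doxycycline alone.

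SAMD9L, the neighbouring paralogue at 93130056 on the same chromosome, behaved differently. It stood at 0.487 and 0.273 CPM in untreated libraries and at 24.9 and 23.4 CPM with both treatments, with no overlap, and rose by 5.95 ± 0.21 on the log2 scale (edgeR adjusted p = 1.2e-23). Its changes with IFN alone and doxycycline alone were 6.46 and 0.69. Of the 19 tested neighbours of SAMD9 on 7q21, 6 rose and 3 fell (median 0.16), where 12.5% of all genes rose and 12.5% fell; without untreated replicate 1, 1 fell, and the lower share is near that of all genes. ANKIB1, a ubiquitin ligase, rose by 0.43 ± 0.06, and the collagen gene COL1A2 fell, with a log2 change of -0.66 ± 0.13.

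**Figure D1:**
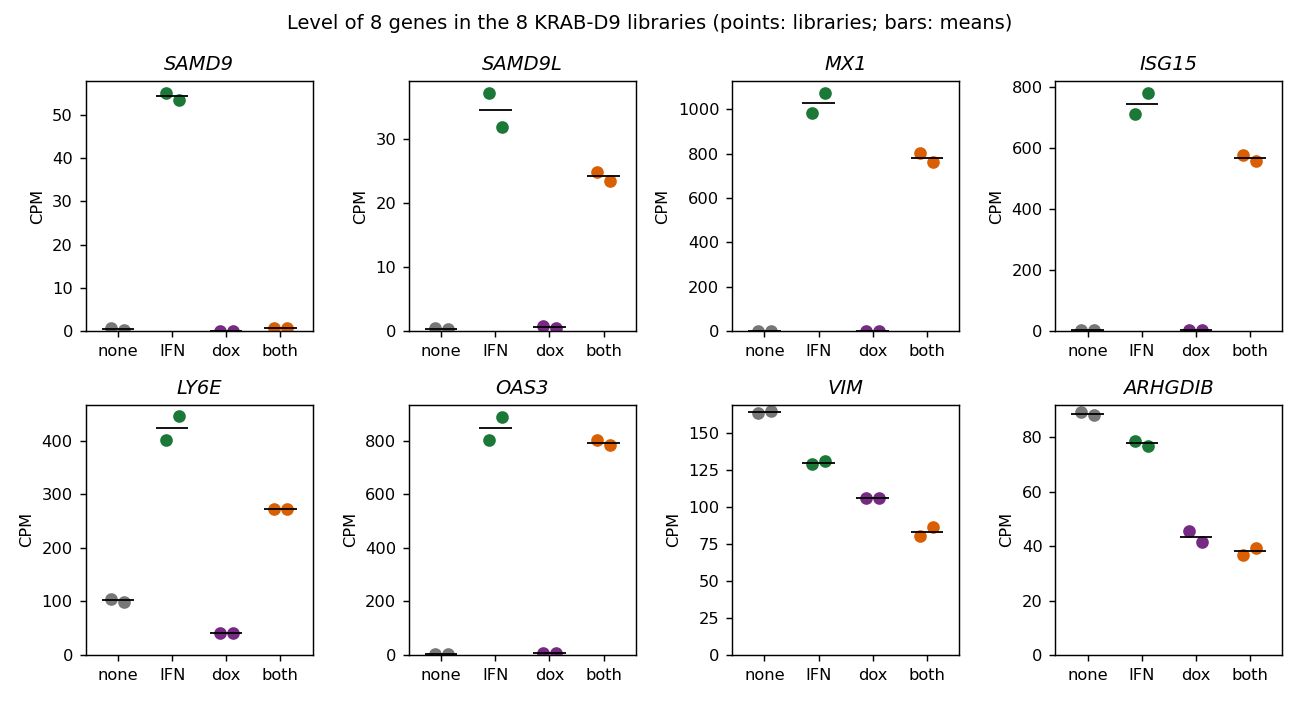
Level in CPM (vertical axis, from 0) of 8 genes in the 2 libraries of each KRAB-D9 group (none, IFN, doxycycline, both); points are libraries and bars are means. SAMD9 is high with IFN alone only, while SAMD9L, MX1 and ISG15 are high in both groups with IFN, and VIM and ARHGDIB are lowest with both treatments.

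Of 22143 genes tested, 5535 were called at an edgeR adjusted p under 0.05, 25% of them. Of these, 2762 rose (12.5%) and 2773 fell (12.5%), and 512 rose and 279 fell by more than 2-fold. The median over all genes was 0.008 on the log2 scale. With library totals in place of TMM, 3388 rose and 2204 fell, so 60.6% of the calls were higher instead of 49.9%; with upper-quartile scaling, tried after the data had been seen, 40.6% were.

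The antiviral effectors carried the largest changes. Of 42 tested members, 35 rose and 1 fell, against 12.5% in each direction over all genes, with a median of 3.29. The summed level of the list went from 1023 and 1012 CPM to 8817 and 8642 CPM. With IFN alone 37 members rose and none fell (median 3.48), where 6.4% of all genes were called, 3.98% higher. With doxycycline alone 8 rose and 8 fell (median 0), where 24.7% of all genes were called, 12% higher and 12.7% lower. Compared directly with IFN alone, 15 of the 42 were lower with both treatments and 2 higher (edgeR; median -0.28), where 22.3% of all genes were called, 11.9% lower and 10.4% higher. OAS2 stood at 178 and 183 CPM with IFN alone and at 103 and 94.7 CPM with both (-0.86 on the log2 scale), and IFI44L at 71.6 and 61.1 CPM and at 32.9 and 31.1 CPM (-1.05).

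MX1, a GTPase that traps viral nucleocapsids, had no read in either untreated library and stood at 801 and 763 CPM with both treatments, at least 25400-fold higher with 3 counts over the untreated group as the floor. By the same bound OAS1, which makes the 2-5A signal for RNase L, was at least 4780-fold higher, OAS2 3220-fold, and IFIT1, which binds foreign capless or differently capped RNA, 2190-fold. IFI44L was at least 1040-fold higher and IFI44 at least 70.5-fold. None of these 6 genes had a read in the untreated libraries, and each had reads in both treated ones.

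IFI27, a mitochondrial interferon-induced protein, went from 1.59 and 1.32 CPM to 589 and 596 CPM (8.65 ± 0.08, edgeR adjusted p = 1e-44). IFI6 went from 2.49 and 1.80 to 1816 and 1808 CPM (9.70 ± 0.23). XAF1, an antagonist of the apoptosis inhibitor XIAP, went from 0.0937 and 0 to 32.0 and 31.8 CPM (9.22 ± 0.29). The treated libraries of all 3 lay far above the untreated ones. ERVWE2, an endogenous retroviral locus, was at least 307-fold higher. Its reads may be shared with related copies.

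IFITM2 was the member that fell. It stood at 80.2 and 79.0 CPM untreated and 65.7 and 65.7 CPM with both treatments (-0.28 ± 0.05, edgeR adjusted p = 4.18e-05), while IFITM1, a close relative that also blocks viral entry, rose by 2.16 ± 0.04. The single changes of IFITM2 were 0.66 with IFN and -0.93 with doxycycline. The IFITM genes are close relatives, and reads that could fit several of them make these values uncertain.

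Among sensors of foreign nucleic acid, 12 of 21 rose and 1 fell, with a median of 0.88, where 12.5% of all genes rose and 12.5% fell. EIF2AK2, the kinase PKR that stops translation on double-stranded RNA, went from 70.6 and 72.8 to 518 and 529 CPM (2.87 ± 0.05, edgeR adjusted p = 1.33e-35). IFIH1, the RNA sensor MDA5, rose by 6.26 ± 0.17, and the RNA editor ADAR by 1.16 ± 0.04. STING1, the adaptor for cyclic dinucleotides, fell (-0.39 ± 0.07), and stood at -0.39 with doxycycline alone.

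ISG15 and its conjugation enzymes rose in 7 of 8 cases (median 4.21), where 12.5% of all genes rose. ISG15, a ubiquitin-like modifier, went from 5.17 and 5.59 to 576 and 558 CPM (6.72 ± 0.06, edgeR adjusted p = 6.93e-44). The ligase HERC6 rose by 8.64 ± 0.21 and the conjugating enzyme UBE2L6 by 4.43 ± 0.08. The exception was ARIH1, which was not called.

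The receptor and signalling list split. Of 25 tested members, 11 rose and 6 fell, with a median of 0.01, beside 12.5% of all genes in each direction. STAT2 went from 43.9 and 43.4 to 136 and 142 CPM (1.67 ± 0.05), and IRF7, an amplifier of interferon transcription, rose by 4.87 ± 0.13. STAT5A, which carries erythropoietin and other cytokine signals, fell from 366 and 373 to 184 and 188 CPM (-0.99 ± 0.04, edgeR adjusted p = 4.08e-22). Its single changes were -0.14 with IFN and -1.004 with doxycycline. SOCS2 and CISH, feedback inhibitors of the same signals, fell as well (-0.61 ± 0.05 and -0.35 ± 0.06). STAT5B and the kinase JAK2, of the same list, rose (0.16 ± 0.04 and 0.30 ± 0.05).

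Of 20 genes of class I antigen presentation, 15 rose and 2 fell (median 0.93), the lower share near the 12.5% of all genes in each direction. The peptide transporter TAP1 went from 0.937 and 0.682 to 32.8 and 30.4 CPM (5.26 ± 0.17), HLA-C from 0.281 and 0.659 to 14.3 and 13.2 CPM (4.92 ± 0.23), and the proteasome activator PSME1 rose by 1.26 ± 0.05. The chaperones CALR (-0.35 ± 0.04) and PDIA3 (-0.14 ± 0.04), which load class I molecules but serve all glycoproteins, fell; PDIA3 was not called without treated replicate 2 (edgeR adjusted p = 0.056). With IFN alone 16 members rose and none fell, where 3.98% of all genes rose. With doxycycline alone 9 fell and none rose, where 12.7% of all genes fell. Against IFN alone, 8 of the 20 were lower with both treatments and none was higher (edgeR, with 11.9% of all genes lower).

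Of 22 PARP, TRIM and PML body genes, 17 rose and 1 fell, beside 12.5% of all genes in each direction. The median was 2.03, or 1.76 with a gene that had no read in 1 group at its bound. PARP14, a mono-ADP-ribosyltransferase, rose by 3.56 ± 0.06, its partner DTX3L by 3.08 ± 0.06 and TRIM14 by 2.12 ± 0.05. DAXX, a histone chaperone of PML bodies, fell (-0.21 ± 0.05).

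Among 33 tested cell death genes 7 rose and 6 fell (median 0.11), a few genes beyond the 12.5% of all genes in each direction. TNFSF10, the death ligand TRAIL, went from 0.225 and 0.0910 to 1.86 and 0.913 CPM, a low level in all libraries (3.08 ± 0.49, edgeR adjusted p = 4.53e-06). The pore former GSDMD rose by 1.60 ± 0.31. BAX, which permeabilises mitochondria, fell from 75.0 and 74.4 to 60.4 and 57.8 CPM (-0.34 ± 0.06), and so did the survival genes BCL2 (-1.12 ± 0.25) and MCL1 (-0.18 ± 0.04). BCL2L1 and BCL2A1 of the list were called lower too, while CFLAR, XIAP and BIRC2, further survival genes, were called higher.

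**Figure D2:**
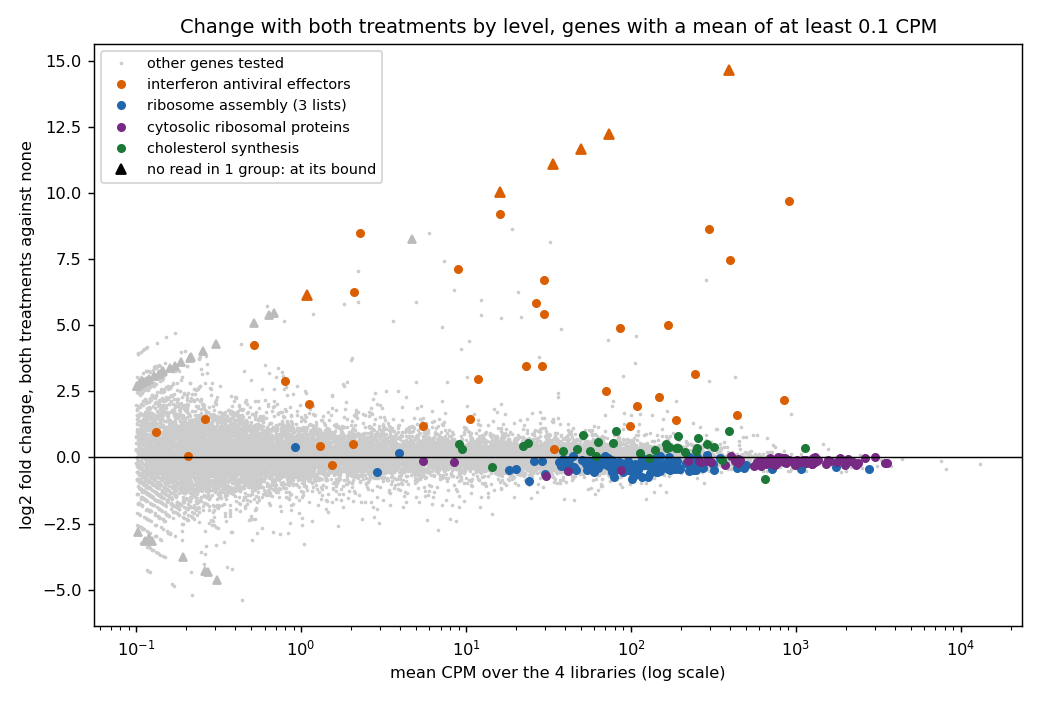
Log2 fold change with both treatments against none (vertical axis) by mean CPM over the 4 libraries (horizontal axis, log scale); grey points are other genes tested, colours mark 4 groups of genes, and triangles mark genes with no read in 1 group, placed at the bound. Antiviral genes reach the top of the plot, while ribosome assembly and ribosomal protein genes form a narrow band just below 0.

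Most ribosome assembly genes fell. Of 60 factors of the small-subunit processome and 40S assembly, 53 fell and none rose (median -0.36, range -0.75 to 0.39), and of 65 factors of 60S assembly, 53 fell and none rose (median -0.31, range -0.81 to 0.16). Of 26 genes of RNA polymerase I and the nucleolar scaffold, 17 fell and none rose (median -0.24, range -0.88 to 0.01). The background was 12.5% lower. The summed level of the first list went from 8300 in each untreated library to 6490 and 6353 CPM. These lists were chosen with the response of such genes already known from these libraries, so their direction is no independent evidence.

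UTP20, a scaffold of the processome, went from 147 and 144 to 86.1 and 86.8 CPM (-0.75 ± 0.04, edgeR adjusted p = 4.53e-17). NOL6, another processome protein, stood at 159 in both untreated libraries and at 91.3 and 97.3 CPM with both treatments (-0.75 ± 0.05). IMP4, which helps U3 pair with precursor RNA, fell by 0.55 on the log2 scale. In each of these genes both treated libraries lay below both untreated ones.

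On the large-subunit path, EBNA1BP2 went from 267 and 264 to 188 and 185 CPM (-0.51 ± 0.04, edgeR adjusted p = 3.28e-13), and MRTO4, which holds the place of the stalk protein, fell too (-0.49 ± 0.04). DDX21, a nucleolar helicase, went from 1232 and 1241 to 919 and 904 CPM (-0.44 ± 0.04). Nucleolin (NCL), the abundant nucleolar RNA-binding protein, went from 1970 and 1977 to 1551 and 1484 CPM (-0.38 ± 0.04), and LYAR from 168 and 173 to 118 and 114 CPM (-0.56 ± 0.05).

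The single-treatment values stood far apart for these genes. In the first list 52 members fell with doxycycline alone (median -0.40; background 12.7% lower) and 1 with IFN alone (median 0.02; background 2.42% lower). Both comparisons use the same untreated libraries as the combined one. Set against doxycycline alone, 3 members of that list were higher with both treatments and none lower. Of all genes 4.89% were called in that comparison, 3.12% higher and 1.77% lower. Set against IFN alone, 53 members were lower and none higher, where 11.9% of all genes were lower. No member of the 3 assembly lists was called different from the sum of the single changes.

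MYC, the factor most tied to ribosome production, fell from 281 and 292 to 229 and 224 CPM (-0.34 ± 0.04, edgeR adjusted p = 1.45e-08), with 0.24 for IFN alone and -0.53 for doxycycline alone. Of 12 tested genes of its network 6 rose and this 1 fell, the lower share below the 12.5% of all genes in each direction. MXD4, a partner-competing antagonist, went from 22.7 and 20.8 to 39.9 and 39.5 CPM (0.87 ± 0.08), and the glucose-sensing factor MLXIPL from 3.71 and 4.53 to 8.06 and 10.6 CPM (1.18 ± 0.15).

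The E-box was found in 43 of 149 promoters of the assembly genes (28.9%; 128 of 151 members matched by symbol) and in 7.26% of all 35116 promoters, over windows of 300 bases, 250 before and 50 after the start, on both strands. By list, it was in 21 of 52 promoters of the small-subunit list (40.4%), 20 of 66 of the 60S list (30.3%) and 2 of 31 of the RNA polymerase I and scaffold list (6.45%), the last below the share of all promoters. With the bases before the start only, the shares were 12.8% for the 3 lists together and 6.34% for all promoters. GAAANNGAA was in 32 of 45 promoters of antiviral effectors (71.1%; 32 of 43 members matched) against 8.11%, and in 2 of 7 of the ISG15 list. Either TTGCATCA or TGATGNAAT was in 7 of 50 promoters of integrated stress response genes (14%) against 1.62%, and the sterol element TCACNCCAC in 1 of 32 promoters of cholesterol genes, SREBF2, against 1.13%. These are matches of letters, given as a description.

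Cytosolic ribosomal protein genes behaved unlike the assembly factors. Of 79, 50 fell and none rose with both treatments (median -0.15), where 12.5% of all genes fell. With IFN alone 18 fell and none rose (median -0.04), where 2.42% of all genes fell. With doxycycline alone 8 rose and 7 fell (median 0.03), where 12% of all genes rose and 12.7% fell. The doxycycline counts thus did not exceed the shares of all genes. Their summed level was 90350 and 88760 CPM untreated, 87840 and 82980 with IFN, 92960 and 91180 with doxycycline, and 82700 and 79070 with both. The libraries with both treatments were the lowest of the 8. The second of them was the lower, and without it 26 of the 79 were called.

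Compared directly, 45 of the 79 were lower with both treatments than with doxycycline alone (edgeR; background 1.77%) and none was higher, and 31 were lower and 3 higher than with IFN alone (background 11.9% and 10.4%). Against the sum of the single changes the median was -0.14, and 1 member, RPS18, was called. RPL26 went from 100.9 and 101.4 to 76.9 and 66.9 CPM (-0.49 ± 0.06, edgeR adjusted p = 3.24e-09), RPL23 from 696 and 670 to 552 and 533 CPM (-0.33 ± 0.04), and RPL17 fell too (-0.51 ± 0.06). Ribosomal protein genes have many processed copies, so reads that fit several places make single values uncertain. The share of mitochondrial reads, 4.11 and 4.17% untreated, was 3.62 and 3.70% with both treatments.

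Mitochondrial ribosomal proteins fell in 42 of 77 cases and rose in 1, MRPL17 (median -0.20), beside 12.5% of all genes in each direction. MRPL17 was lost under 5 of 14 alternatives, among them leaving out untreated replicate 1, untreated replicate 2 or treated replicate 1. MRPL55 (-0.54 ± 0.07) and MRPL4 (-0.48 ± 0.06) fell, in a list whose lowest value was -1.09. Of 72 nuclear genes of the respiratory chain 26 fell and none rose (median -0.10), with ATP5MC3, a ring subunit of ATP synthase, going from 873 and 847 to 721 and 707 CPM (-0.27 ± 0.04). Of the 13 mRNAs encoded in mitochondria 3 fell (median -0.14). That count was 10 when the fit held only the 4 libraries and 1 without untreated replicate 2 or treated replicate 1.

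**Figure D3:**
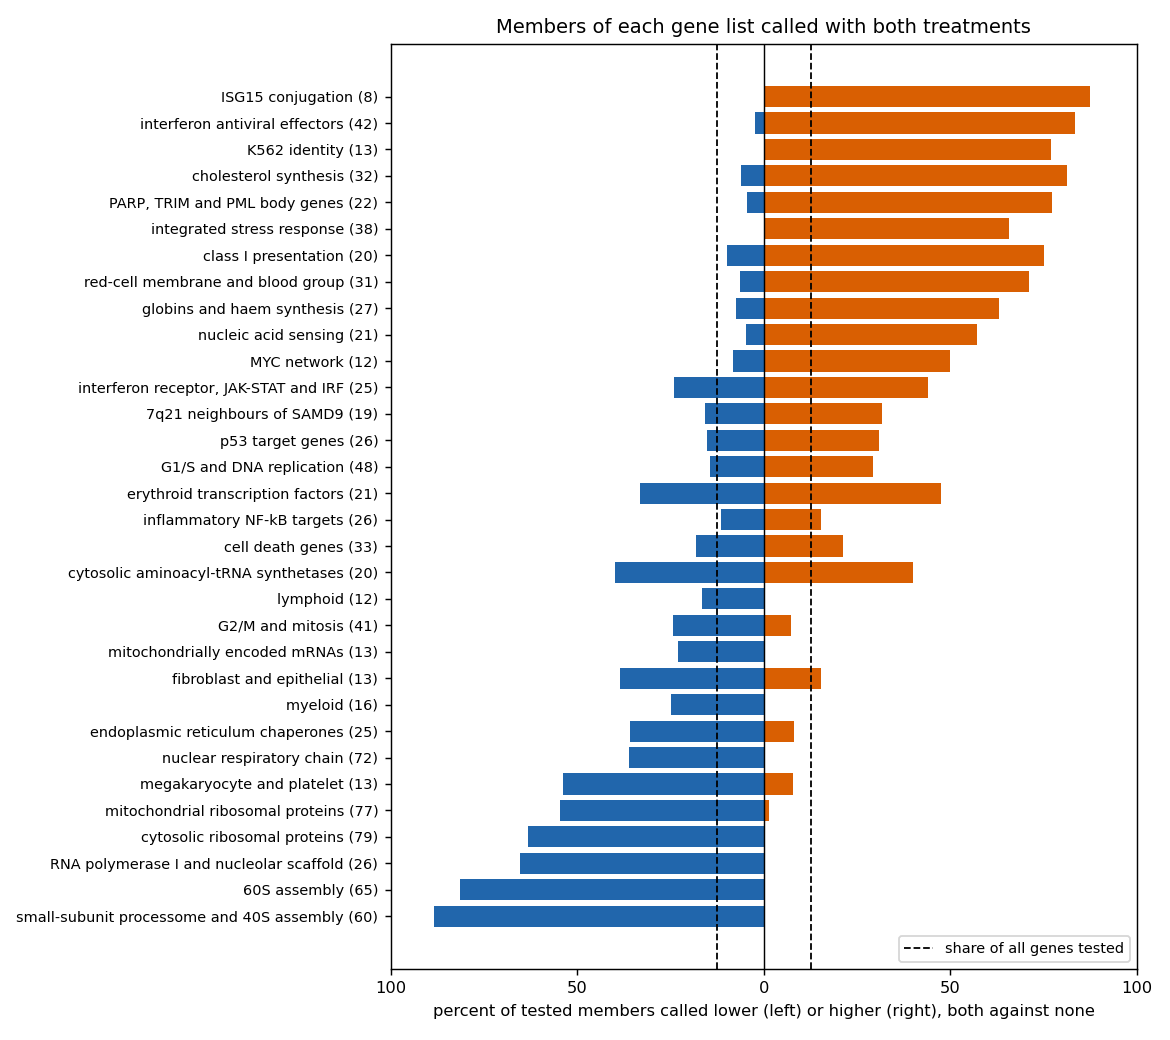
Percent of the tested members of each list called lower (left, blue) or higher (right, orange) with both treatments against none, by edgeR at an adjusted p under 0.05; numbers of tested members are in parentheses and dashed lines mark 12.5% in each direction, the share over all genes. ISG15 conjugation and antiviral effectors are at the top and the ribosome assembly lists at the bottom, with 88% of the small-subunit list lower.

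Genes of the integrated stress response rose in 25 of 38 cases and fell in none (median 0.32), beside 12.5% of all genes in each direction. SLC6A9, a glycine transporter, went from 16.6 and 13.5 to 43.5 and 41.4 CPM (1.49 ± 0.10, edgeR adjusted p = 1.09e-14). PHGDH, the first enzyme of serine synthesis, rose by 1.46 ± 0.09 and SLC7A11, the cystine importer, by 1.22 ± 0.09. With doxycycline alone 22 members rose and 2 fell (median 0.24), where 12% of all genes rose and 12.7% fell. With IFN alone 12 rose and 1 fell (median 0.11), where only 3.98% of all genes rose and 2.42% fell.

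The cytosolic tRNA synthetases split evenly, with 8 of 20 higher and 8 lower (median -0.03), beside 12.5% of all genes in each direction. CARS1 went from 48.6 and 48.3 to 86.8 and 75.7 CPM (0.75 ± 0.07) and MARS1 rose by 0.38 ± 0.04, while RARS1 went from 205 and 209 to 153 and 146 CPM (-0.47 ± 0.04). Endoplasmic reticulum chaperones fell in 9 of 25 cases and rose in 2, the higher share below the 12.5% of all genes. CALR, a calcium-binding chaperone, went from 1102 and 1099 to 880 and 853 CPM. EDEM1, which sends misfolded glycoproteins to degradation, rose by 0.44 ± 0.07. In this list 14 members rose and none fell with IFN alone, where 3.98% of all genes rose. With doxycycline alone 15 fell and 2 rose, where 12.7% of all genes fell and 12% rose.

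Cholesterol synthesis genes rose in 26 of 32 cases and fell in 2 (median 0.35), beside 12.5% of all genes in each direction. HMGCS1, which makes the substrate of HMG-CoA reductase, went from 258 and 266 to 511 and 539 CPM (1.00 ± 0.04, edgeR adjusted p = 5.87e-21). MSMO1, a sterol demethylase, went from 55.6 and 52.8 to 107 and 108 CPM (0.98 ± 0.06), and INSIG1, the sterol-responsive retention factor, rose by 0.75 ± 0.05. FASN, the fatty acid synthase, went the other way, from 810 and 857 to 460 and 481 CPM (-0.83 ± 0.10, edgeR adjusted p = 0.000181), and so did PMVK (-0.37 ± 0.10), which was not called without untreated replicate 1 or without treated replicate 2 (edgeR adjusted p up to 0.0703). With both treatments 6 of the 32 stood above doxycycline alone, with none below, where 3.12% of all genes were higher. No member was called different from the sum.

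Of 27 globin and haem genes 17 rose and 2 fell (median 0.42; 12.5% of all genes in each direction), and of 31 genes of the red-cell membrane and blood groups 22 rose and 2 fell (median 0.49). SLC25A37, the mitochondrial iron importer, went from 357 and 349 to 590 and 614 CPM (0.77 ± 0.04, edgeR adjusted p = 1.31e-19), PPOX, an enzyme of haem synthesis, rose by 1.05 ± 0.06, and the blood group gene RHCE went from 15.6 and 15.8 to 45.4 and 42.4 CPM (1.48 ± 0.09). Of the globin genes, HBD, HBG1, HBG2 and HBQ1 were called higher, and HBA1, HBB, HBE1, HBZ and HBM were not called. FTL, the ferritin light chain, fell from 2297 and 2169 to 1488 and 1561 CPM (-0.55 ± 0.04), while the transferrin receptor TFRC rose from 1201 and 1211 to 1718 and 1699 CPM (0.50 ± 0.04). HBA2, an alpha globin gene, fell (-0.52 ± 0.11), but was not called without treated replicate 1 (edgeR adjusted p = 0.0527), and its reads may be shared with its near-identical copy.

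Of 21 erythroid transcription factors 10 rose and 7 fell (median 0.05), beside 12.5% of all genes in each direction. TAL1 went from 181 in both untreated libraries to 259 and 257 CPM (0.51 ± 0.05) and LMO2 rose by 0.53 ± 0.05. LYL1, a relative of TAL1, went from 151 and 153 to 89.3 and 87.0 CPM (-0.79 ± 0.05), and GATA2 (-0.42 ± 0.05) and MYB (-0.29 ± 0.04), factors of earlier progenitors, fell. All 13 genes chosen as K562 identity markers were expressed, and 10 of them rose (median 0.25; 6 without untreated replicate 1).

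Genes of other blood lineages were called lower more often than higher, beside 12.5% of all genes in each direction. Of 13 tested megakaryocyte and platelet genes, from 18 in the list, 7 fell and 1 rose (median -1.50), and the summed level of the list went from 87.0 and 88.2 to 62.3 and 62.9 CPM. GP6, the platelet collagen receptor, went from 14.3 and 14.9 to 2.11 and 3.37 CPM (-2.42 ± 0.17, edgeR adjusted p = 6.47e-15), and TUBB1, the platelet tubulin, rose from 18.5 and 16.9 to 36.1 and 32.2 CPM (0.95 ± 0.10). Among the markers CLEC1B, TREML1 and P2RY12 had no read in the 4 libraries. Of 16 tested myeloid genes, from 22, 4 fell and none rose (median -0.52), with the list's sum going from 98.6 and 103 to 52.3 and 51.0 CPM. FCGR2A, an Fc receptor, went from 36.2 and 37.1 to 12.1 and 13.3 CPM (-1.53 ± 0.09); ELANE had no read.

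CD3D, of the T cell receptor complex, stood at 5.00 and 5.03 CPM untreated and 0.903 and 0.894 CPM with both treatments (-2.48 ± 0.25), and 2 of 12 tested lymphoid genes, from 17, fell, a share near the 12.5% of all genes; the list summed to at most 10.5 CPM and CD8A had no read. Of 13 tested fibroblast and epithelial genes, from 19, 5 fell and 2 rose, the higher share near the 12.5% of all genes. The sum of this list went from 871 and 889 to 674 CPM in both libraries, and LUM, PDGFRA and FAP had no read. KRT8, a keratin that K562 cells express, went from 438 and 453 to 323 and 326 CPM (-0.46 ± 0.05). In bulk RNA fewer cells of a kind and less RNA per cell cannot be told apart. The part of these markers in the other results was not tested.

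**Figure D4:**
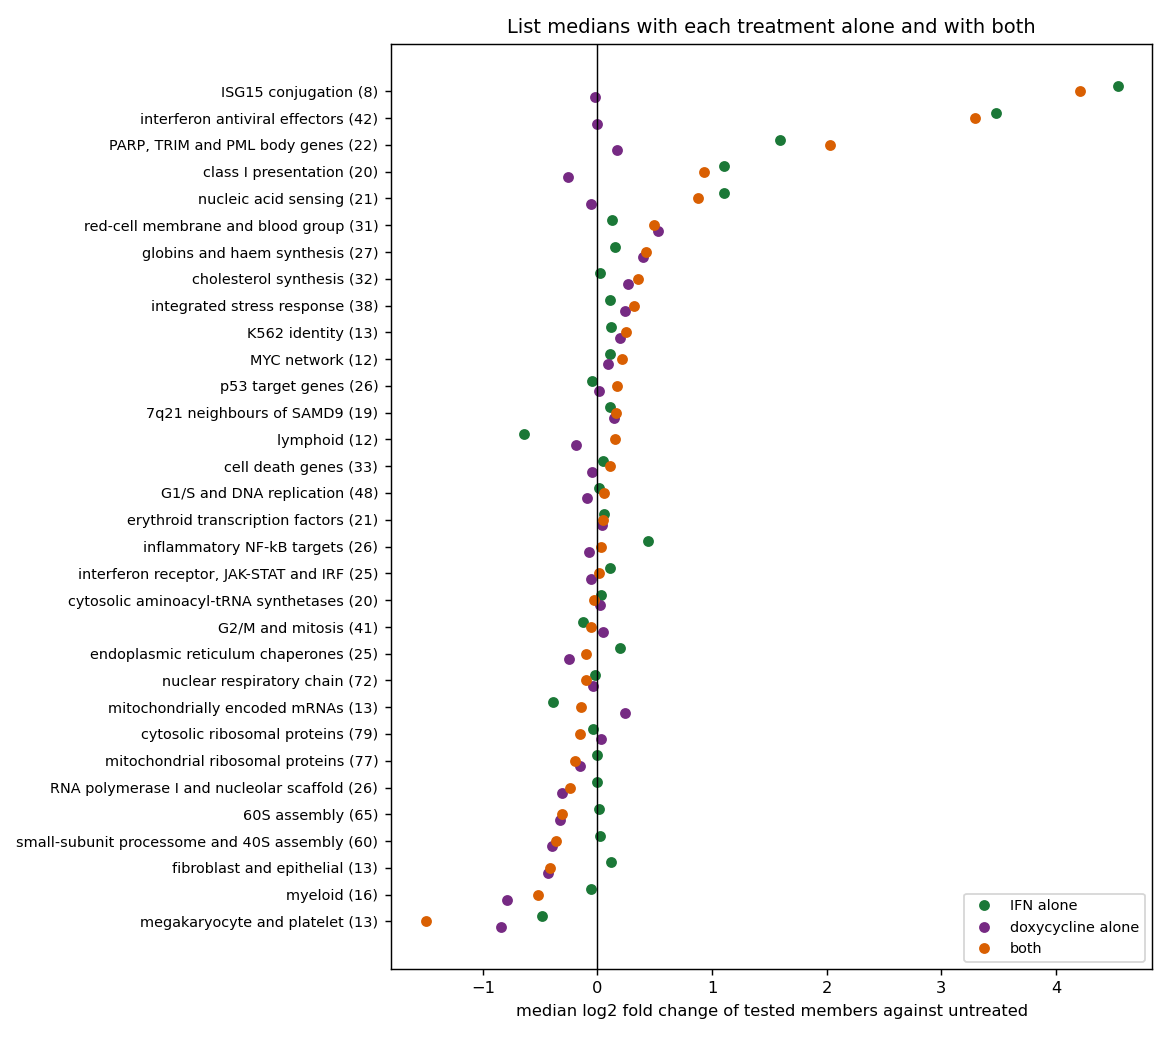
Median log2 fold change against untreated cells (horizontal axis) of the tested members of each list with IFN alone (green), doxycycline alone (purple) and both (orange); the 3 comparisons share the untreated libraries. The 5 lists with the highest medians lie nearer to IFN alone, the assembly lists lie nearer to doxycycline alone, and the cytosolic ribosomal protein list has -0.15 with both beside -0.04 and 0.03.

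Of 48 genes of G1/S and replication 14 rose and 7 fell (median 0.06), the lower share near the 12.5% of all genes; without untreated replicate 1, untreated replicate 2 or treated replicate 1 the higher ones numbered 7, 9 and 8. Cyclin D1 (CCND1) went from 19.5 and 20.3 to 7.17 and 7.003 CPM (-1.49 ± 0.13, edgeR adjusted p = 7.35e-12) and cyclin D2 (CCND2) from 23.9 and 22.7 to 12.3 and 13.5 CPM (-0.85 ± 0.09), while cyclin E1 (CCNE1) rose by 0.56 ± 0.08. Of 41 genes of G2/M and mitosis 10 fell and 3 rose, or 1 without any single one of the 4 libraries (median -0.06), with the anaphase activator CDC20 going from 194 and 200 to 140 and 138 CPM (-0.50 ± 0.05). The background for both treatments against none was 12.5% in each direction, which the 3 higher members did not exceed. In that list 16 members were lower and 1 higher than with doxycycline alone, where 1.77% of all genes were lower and 3.12% higher. With IFN alone 14 of its members fell and none rose (2.42% of all genes fell). With doxycycline alone 11 rose and 2 fell (12% of all genes rose and 12.7% fell).

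Of 26 tested p53 target genes 8 rose and 4 fell (median 0.17), where 12.5% of all genes rose and 12.5% fell. The lower share was near that of all genes. K562 cells are known to lack functional p53. TP53INP1 went from 5.94 and 6.07 to 12.6 and 14.1 CPM (1.15 ± 0.13), BTG2, an antiproliferative factor, rose by 0.69 ± 0.06, and ZMAT3 fell (-0.81 ± 0.09). Of 26 inflammatory NF-kB targets 4 rose and 3 fell (median 0.03), a share near the background; IL15RA rose by 1.32 ± 0.19.

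The largest falls lay outside the interferon and ribosome lists and at low levels. LST1, a leukocyte transcript, went from 2.02 and 1.73 to 0.181 and 0.205 CPM (-3.27 ± 0.44, edgeR adjusted p = 1.87e-07). VGF, a secreted neuropeptide precursor, went from 11.6 and 11.8 to 1.64 and 1.83 CPM (-2.75 ± 0.23). CORO1A, an actin-binding protein of leukocytes, went from 13.1 and 13.7 to 2.31 and 3.07 CPM (-2.31 ± 0.14). PLXNA2, a semaphorin receptor, went from 9.69 and 9.87 to 1.99 and 1.75 CPM (-2.38 ± 0.19), and the growth factor IGF1 from 4.37 and 3.39 to 0.903 and 0.633 CPM (-2.33 ± 0.25). S100P, CSTA, VSIG4, GOLGA6L4 and TRBC1 completed the 12 with GP6 and CD3D. VSIG4 was no longer called without treated replicate 1 (-1.76, edgeR adjusted p = 0.0874).

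Among genes in no list, 8 that fell were named by their adjusted p. EMP3, a membrane protein, went from 185 and 184 to 62.2 and 61.8 CPM (-1.57 ± 0.05, edgeR adjusted p = 1.1e-26). ARHGDIB went from 89.4 and 88.1 to 36.9 and 39.5 CPM (-1.22 ± 0.05), and the tetraspanin CD53 from 75.8 and 77.1 to 34.8 and 32.6 CPM (-1.18 ± 0.05). The changes of EMP3, ARHGDIB and CD53 were -1.57, -1.03 and -1.07 with doxycycline alone. With IFN alone they were 0.015, -0.19 and -0.20. Vimentin (VIM) went from 164 and 165 to 80.1 and 86.1 CPM (-0.98 ± 0.04), and TPM4, TNNT1 and NMU fell as well.

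PPP1R12C, a myosin phosphatase subunit whose first intron holds the AAVS1 site often used for transgenes, went from 71.0 and 64.9 to 22.3 and 22.4 CPM (-1.61 ± 0.06, edgeR adjusted p = 1.8e-23). Its single changes were 0.08 with IFN and -1.48 with doxycycline. The sources used here do not give where the construct sits in this line.

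On the higher side, the linker histone gene H1-2 went from 457 and 451 to 1450 and 1357 CPM (1.63 ± 0.04, edgeR adjusted p = 4.45e-30) and H2AC6 from 137 and 136 to 343 and 334 CPM (1.31 ± 0.04). Each had a similar change with either treatment alone, 0.72 with IFN and 0.92 with doxycycline for H1-2, and 0.70 and 0.70 for H2AC6. The libraries were made from polyadenylated RNA, so the values of these histone genes describe only that part of their transcripts. The junction protein gene AFDN went from 210 in both untreated libraries to 447 and 445 CPM (1.09 ± 0.04). RNF213, SHFL, an inhibitor of viral frameshifting, and TDRD7 rose by 1.61 ± 0.06, 3.55 ± 0.11 and 2.45 ± 0.08.

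The combined change was then set against the sum of the single log2 changes, an interaction in the same model. Of 22143 genes, 35 were called (edgeR; 0.158%), 14 above (0.0632%) and 21 below the sum (0.0948%), and 1987 had an unadjusted p under 0.05. The counts rest on the IFN-alone group, whose 2 libraries differed most among the 9 groups (chi-square per gene 17.9 against 4.59 to 6.67) and held the shallowest library. Without replicate 2 of that group 474 and 295 genes were called.

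LY6E, an interferon-induced surface protein, had the smallest adjusted p. It stood at 104 and 99.6 CPM untreated, 402 and 447 with IFN, 41.1 and 41.5 with doxycycline, and 273 and 273 with both. The IFN libraries were the highest and the doxycycline libraries the lowest. The combined change of 1.42 exceeded the sum by 0.66 ± 0.07 (edgeR adjusted p = 1.52e-07). IFI16, a nuclear DNA sensor, exceeded it by 0.91 ± 0.17.

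Below the sum lay UBE2L6 (-0.82 ± 0.10, edgeR adjusted p = 8.24e-06) and OAS3 (-0.75 ± 0.11, edgeR adjusted p = 0.000567), whose levels with IFN alone and with both were close although doxycycline alone raised each. TGM2, a transglutaminase, went from 79.3 and 88.3 to 232 and 222 CPM with both, and lay 0.62 below the sum of 1.17 and 0.89 (edgeR adjusted p = 3.72e-06). For GP6, TNS2, EPHB6 and PPP1R16B, which fell with doxycycline alone and also with IFN alone, the combined fall was smaller than the sum by 1.14, 1.22, 0.70 and 0.71. HES4 and DHRS2 lay below it by 0.60 and 0.74. Of these genes, LY6E, UBE2L6, OAS3 and TGM2 were called under every alternative run, and IFI16, GP6, TNS2, EPHB6, PPP1R16B, HES4 and DHRS2 were each lost under at least 3.

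A few more genes called against the sum were chosen after their values were seen. SLC2A3, the glucose transporter GLUT3, stood at 107 and 110 CPM untreated, 69.9 and 69.8 with IFN, 63.8 and 63.1 with doxycycline, and 59.1 and 70.0 with both. All 6 treated libraries lay below the untreated ones, and the combined fall was smaller than the sum by 0.66 ± 0.08 (edgeR adjusted p = 7.09e-06). PKM, a glycolytic enzyme, stood at 514 and 532 CPM with both, above the other 6 KRAB-D9 libraries, and ITGA5, the fibronectin receptor chain, lay 0.53 ± 0.08 above its sum. KEL, the Kell blood group protein, and the chaperone HSP90B1 lay below theirs (-0.29 ± 0.06 and -0.24 ± 0.05).

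**Figure D5:**
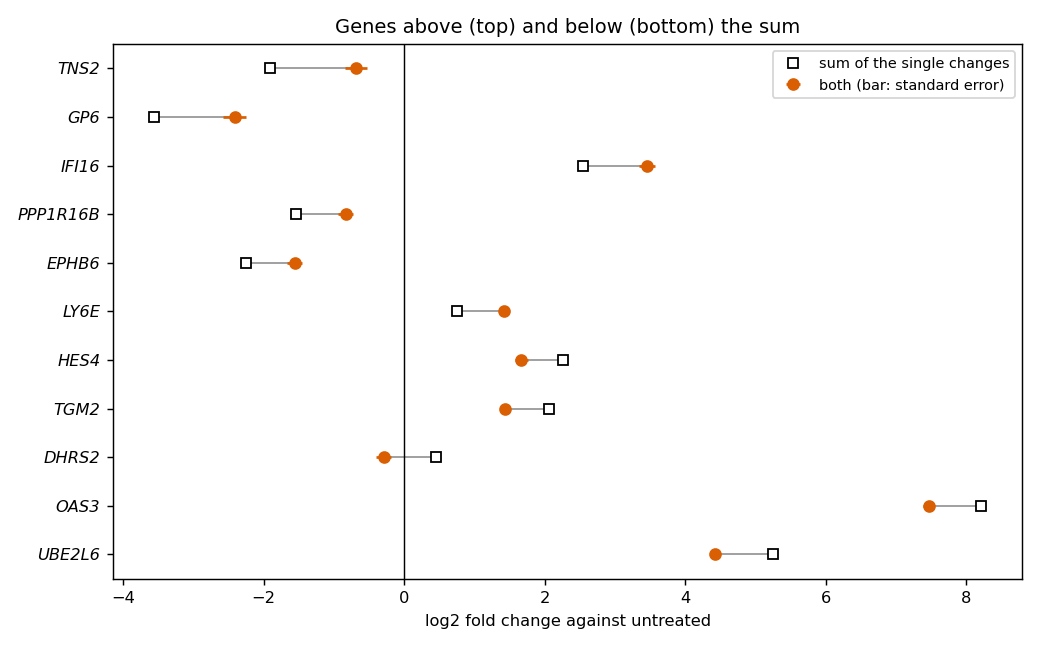
Log2 fold change against untreated cells (horizontal axis) with both treatments (orange, bars are standard errors) and the sum of the changes with IFN alone and doxycycline alone (open squares) for genes far above or below the sum. TNS2 at the top lies 1.22 above its sum and UBE2L6 at the bottom 0.82 below.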

How the data were processed

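Polyadenylated RNA of 18 K562-derived libraries was sequenced with a stranded kit, per the labels' protocols. The table that the authors deposited holds whole-number counts of reads for 41285 genes, without normalisation. Reads were handled with featureCounts 2.0.2, STAR 2.7.8a, FastQC 0.11.9 and cutadapt 2.10 on GRCh38.p13, per the submitters' processing notes. For the annotation release, strand setting and reads that fit several places: not given in the sources used here.

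The 4 libraries compared held 45964285 to 56273557 counts, and the 8 KRAB-D9 libraries 32694200 to 59653278. Depth limits genes with few counts most: bounds use a floor of 3 counts per group and cover counting error only. After filterByExpr with the groups, 22143 genes were tested. TMM factors set the library sizes and CPM. In R 4.3.3, edgeR 4.0.16 fitted 9 groups over the 18 libraries by robust quasi-likelihood, which left 9 degrees of freedom for the spread. The common coefficient of biological variation was 0.0569. Genes were called at a Benjamini-Hochberg adjusted p under 0.05. Standard errors were derived from the fold change and its F value. Separate cultures are not named in the labels; p-values therefore reflect only how far the 2 libraries of each group lay apart, which may be technical. The fit was tested on simulated data for both treatments against none. It recovered 82 of 100 genes changed 2-fold and 68 of 100 changed 1.3-fold. Among 20920 genes run, 8 of the unchanged genes were called. The simulated counts took their spread from the same fit, with 1 mean in all libraries for unchanged genes. Changed genes had a mean of at least 1 CPM. Spread that differs between groups, as seen in the IFN-alone group, was therefore not tried.

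The genes named are SAMD9 and SAMD9L, the 12 largest rises and falls, the 6 genes furthest above and the 6 furthest below the sum, 3 members of each of 33 lists by adjusted p with up to 3 that went against their list, and 8 genes in no list per direction. All but the first pair and the list members had to be called with a mean of at least 1 CPM, and those not chosen against the sum also had groups that did not overlap. Some of these genes are not reported here. Other genes named were chosen after their values were seen. No set test was run. The 9p21 list had no tested member. The members and lists were chosen with earlier results of these data known. Alternatives were other scalings, filters and libraries in the fit, DESeq2 1.42.0, the replicate number as a block and leaving out each library. Promoter sequences are from RefSeq, GRCh38.p14.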

Additional observations from a re-analysis of the deposited data

Results flagged for a closer look

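The combined change differed from the sum of the single changes for 14 genes above it and 21 below it, by the interaction term of the edgeR model. On the log2 scale the differences were 1.22 for TNS2, 1.14 for GP6, 0.91 for IFI16, 0.71 for PPP1R16B, 0.70 for EPHB6 and 0.66 for LY6E above the sum. Below it they were -0.82 for UBE2L6, -0.75 for OAS3, -0.74 for DHRS2, -0.62 for TGM2, -0.60 for HES4, -0.53 for GMPR, -0.28 for EIF2AK2 and -0.27 for FTL. GMPR, a guanosine monophosphate reductase, stood at 68.2 and 63.6 CPM untreated and at 207 and 196 CPM with both treatments.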

How the results depend on the processing

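Counts of genes called with both treatments against none stayed within 1.5 times under every alternative run (higher 2059 to 3388, lower 2048 to 3449), and no named gene changed direction; of 2554 values of named genes, 107 lost their call and 9 gained one. For both treatments against doxycycline alone, the genes called lower (391) numbered 647 with upper-quartile scaling, 204 with only the 8 KRAB-D9 libraries in the fit, 608 without the IFN group, and 155 to 218 without 1 replicate; those called higher (691) numbered 431 to 457 without 1 replicate. Genes above and below the sum (14 and 21) numbered 32 and 42 with no filter, 5 and 9 with only the 8 KRAB-D9 libraries, 45 and 38 with DESeq2, and 6 to 474 and 10 to 295 without 1 replicate. The cause was not tested. Some medians near 0 changed sign: the tRNA synthetases with library totals (0.01); with upper-quartile scaling all genes (-0.03), the JAK-STAT list (-0.03) and the NF-kB list (-0.01); the NF-kB list also with a mean of at least 1 CPM (-0.01), with the 4 libraries only (-0.02) and from -0.01 to 0.25 without 1 replicate. The lymphoid median was -0.26 with no filter, -0.6 with 8 libraries, -0.59 with 4, -0.01 with the replicate block, and -0.57 to 0.13 without 1 replicate. The share of promoters with an E-box before the start was 13.5% for the small-subunit list (40.4% in the whole window), 15.2% for the 60S list (30.3%) and 12.8% for the assembly lists together. With the replicate number as a block, 2729 genes were called higher and 2758 lower, and 12 and 18 above and below the sum; replicate numbers did not pair the samples (correlation of deviations -0.00353 between the groups compared; from -0.00664 to 0.145 over the 6 pairs of KRAB-D9 groups, with 0.107 for untreated and IFN and 0.145 for IFN and doxycycline).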
